A study of Mus musculus with 6 samples.

Results

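The genes described here encode 8 small leucine-rich proteoglycans: decorin (Dcn), biglycan (Bgn), asporin (Aspn), lumican (Lum), fibromodulin (Fmod), PRELP (Prelp), osteomodulin (Omd) and osteoglycin (Ogn). They were chosen by symbol, and all 8 were found in every library among the 30406 genes that the libraries shared. The nuclei came from the tibial periosteum, the tissue that covers the outer surface of bone, of C57BL/6ScNj wild-type mice aged 12 weeks, males and females mixed (the labels give the genotype as C57BL6). There were 2 uninjured libraries and, from periosteum collected together with the hematoma after an open non-stabilized fracture of the tibia, 2 libraries at day 3, 1 on day 5 and 1 on day 7. Each library was 1 pool of nuclei, from 4 mice for uninjured tissue and from 4 to 9 mice after fracture, so the error between libraries is an error between pools. All groups carried the same genotype, and the fracture groups held hematoma that the uninjured groups lacked.

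Small leucine-rich proteoglycans are secreted proteins with a core of leucine-rich repeats, most of which carry glycosaminoglycan chains. They bind collagen fibrils and govern how fibrils grow and fuse, and several of them also bind growth factors such as TGF-beta and BMPs in the matrix. Decorin, biglycan and asporin form class I, and decorin and biglycan carry chondroitin or dermatan sulfate chains. Lumican, fibromodulin, PRELP and osteomodulin form class II, in which keratan sulfate and sulfated tyrosines are common, and osteoglycin belongs to class III. In bone, decorin and biglycan are abundant in the organic matrix, osteomodulin is known from mineralizing bone, and fibromodulin is best known from tendon.

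The deposited values were raw counts of unique molecular identifiers (UMIs, 1 per captured transcript), from 1499281 to 29796296 per library. After filtering and removal of myogenic nuclei, 6038 nuclei formed 22 clusters, 20 of which were named from marker genes as 12 populations. The members and 10 related family genes had been kept out of the genes used for clustering. Levels are given as CPM, the UMIs of a gene scaled to a total of 1000000 UMIs of the same nuclei, with exact Poisson 95% intervals that cover counting error only. Stromal nuclei are the SSPC-like (skeletal stem/progenitor), fibroblast-like, IIFC-like (injury-induced fibrogenic), osteoblast-like and chondrocyte-like nuclei together, 84 and 295 before fracture, then 114 and 245 (day 3), 992 (day 5) and 676 (day 7). Among the markers used for naming, Pi16 was at 699 CPM in SSPC-like, Pdgfra at 301 in fibroblast-like and Postn at 4014 in IIFC-like nuclei. Ibsp was at 985.5 in osteoblast-like and Acan at 2237 in chondrocyte-like nuclei. Since the names came from these markers, their levels are no separate support for the names. Uninjured replicate 1, day 5 and day 7 were counted with Cell Ranger 6.0.0 and the other 3 libraries with 7.1.0. In 2 libraries fewer barcodes passed the filter than failed it, 1720 of 4712 in day 3 replicate 2 and 1351 of 3448 on day 7, and 18 barcodes of 13551 occurred in 2 or more libraries.

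Most members lie beside each other in the genome. On GRCm38, Dcn is on chromosome 10 from 97479609 to 97518143 and Lum follows it 47.0 kb further on, from 97565128 to 97572703, on the same strand. Prelp (chromosome 1, 133910304 to 133921414, minus strand) and Fmod (134037254 to 134048277, plus strand) are 116.0 kb apart and face away from each other. Aspn (49544443 to 49567565), Omd (49582462 to 49592822) and Ogn (49608046 to 49624501) follow each other on the plus strand of chromosome 13 with gaps of 14.9 and 15.2 kb, and all of them overlap Cenpp, a centromere protein gene on the minus strand. Bgn stands alone on chromosome X, from 73483602 to 73495933. The sources used here do not say whether reads were counted by strand. Whether any reads of Cenpp entered the counts of Aspn, Omd and Ogn was not tested. Cenpp itself was at 0 and 38.7 CPM in the uninjured stromal nuclei, 162 and 161 at day 3, 221 on day 5 and 108 on day 7.

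The chromosome 13 neighbours are shown by the 250 bases before their RefSeq start sites (GRCm38.p6, plus strand). They share a stretch of the genome but were not detected in all the same populations. In uninjured Schwann-like nuclei Ogn was detected while Aspn and Omd had 0 UMIs. Over 49 sums of a population in a library, however, Aspn and Ogn had a Pearson r of 0.673. The windows are chr13:49544193-49544442 for Aspn, chr13:49582212-49582461 for Omd and chr13:49607765-49608014 for Ogn. Capitals mark any match, on either strand, to the TATA box (TATAAA), the CCAAT box (CCAAT), the RUNX motif (TGTGGT), the TEAD motif (GGAATG) or the AP-1 motif (TGANTCA).
Aspn: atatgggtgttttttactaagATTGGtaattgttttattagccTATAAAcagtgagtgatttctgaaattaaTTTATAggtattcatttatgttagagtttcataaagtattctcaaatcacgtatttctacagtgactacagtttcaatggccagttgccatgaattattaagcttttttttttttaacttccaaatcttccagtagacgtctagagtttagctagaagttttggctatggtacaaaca
Omd: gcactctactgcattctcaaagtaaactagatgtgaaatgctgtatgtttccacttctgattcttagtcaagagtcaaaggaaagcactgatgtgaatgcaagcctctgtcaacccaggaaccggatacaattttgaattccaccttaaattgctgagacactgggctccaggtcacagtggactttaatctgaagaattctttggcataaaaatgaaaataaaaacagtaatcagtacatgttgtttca
Ogn: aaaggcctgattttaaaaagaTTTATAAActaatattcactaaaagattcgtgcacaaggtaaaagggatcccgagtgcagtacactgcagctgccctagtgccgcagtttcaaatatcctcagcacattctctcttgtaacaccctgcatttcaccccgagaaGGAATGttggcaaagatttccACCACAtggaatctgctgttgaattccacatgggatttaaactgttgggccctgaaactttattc
Both strands of Aspn's window held TATAAA, 207 and 178 bases before the start, and it held CCAAT on the minus strand, 229 bases before it. In Ogn the same TATA letters overlapped on both strands, 229 and 227 bases before the start, and GGAATG and TGTGGT (minus strand) lay 86 and 65 bases before it. Omd's window held none of the 5 motifs. Of 27025 promoter windows of this length, 13.0% held TATAAA, 34.5% CCAAT, 12.6% GGAATG, 14.2% TGTGGT and 6.87% TGANTCA. Windows were found for 6 of the 8 members, Dcn and Lum having no entry, and none of the 6 held the AP-1 letters. The windows of Bgn (64.4% G and C) and Aspn (30.0%) were the extremes in base composition.

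Decorin was the member that fell at day 3 after fracture. In stromal nuclei Dcn was at 980.0 CPM (127 UMIs, interval 817 to 1166) and 2348 (2973 UMIs, 2264 to 2434) before fracture. The day 3 libraries had 169.6 (64 UMIs, 130.6 to 216.6) and 459 (807 UMIs, 428 to 492), the day 5 library 282 (267 to 296) and the day 7 library 258 (233 to 285). Both uninjured libraries lay above all 4 fracture libraries, and the levels of days 5 and 7 fell between those of the day 3 replicates. The mean was 1664 CPM ± 967 (SD, n = 2) before fracture and 314 ± 205 (SD, n = 2) at day 3. By edgeR's quasi-likelihood test over 9247 genes, with Benjamini-Hochberg adjustment, Dcn fell by 2.45 on the log2 scale (SE 0.519, adjusted p = 0.0174). It was 1 of the 7 members tested that was called lower, against 4.59% of all genes tested called lower and 8.47% called in either direction, and Fmod was left out by the filter on low counts. The order held within each Cell Ranger version, at 2348 CPM against 169.6 and 459 with 7.1.0, and at 980.0 against 282 and 258 with 6.0.0. Without uninjured replicate 2, the deeper control, the fall was 1.69 and no longer passed the test (edgeR, adjusted p = 0.117). Over all alternatives the adjusted p of Dcn ran from 3.51e-07 to 0.117.

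**Figure D1:**
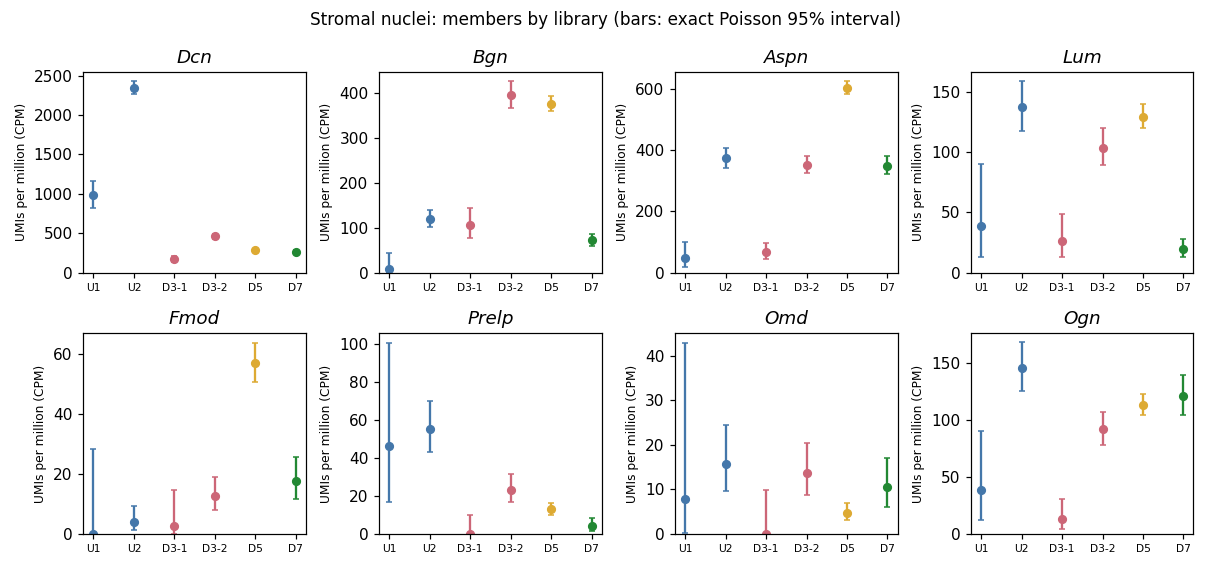
CPM of each member in stromal nuclei of the 6 libraries (U1 and U2 uninjured, D3-1 and D3-2 day 3, D5 day 5, D7 day 7), with exact Poisson 95% intervals and a separate axis for each gene. Both uninjured libraries lie above the others for Dcn, while Bgn and Aspn are highest at 394 CPM in day 3 replicate 2 and 604 CPM on day 5.

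The fall was also called in the fibroblast-like nuclei alone, a set whose make-up depended on the clustering. It held 42 and 126 nuclei before fracture and 91 and 167 at day 3, when IIFC-like nuclei numbered 4 and 18. With the family genes kept among the genes used for clustering, it held 41 and 113, then 34 and 90. Whether the mix of cells within it changed was not tested. In fibroblast-like nuclei Dcn was at 1176 and 2846 CPM before fracture and at 173 and 404.5 at day 3, with 286 on day 5 and 337.5 on day 7. Again no fracture library reached the lower uninjured one. This was a log2 fold change of -2.81 (SE 0.55, adjusted p = 0.0106, edgeR over 7068 genes), and Dcn was the 1 of 6 members tested that was called, where 4.85% of all genes were called lower, 4.05% higher and 8.9% in all. Without uninjured replicate 2 the change was -1.92 and did not pass (edgeR, adjusted p = 0.0569), and over all alternatives its adjusted p ran from 2.03e-05 to 0.0569. In SSPC-like nuclei, the Pi16-positive population, Dcn was at 804 and 2222 CPM before fracture, 829 in day 3 replicate 2, 583.5 on day 5 and 512 on day 7, so that day 3 replicate 2 lay beside the lower uninjured library. Day 3 replicate 1 held only 12 SSPC-like nuclei with 8 Dcn UMIs. Tendon-like nuclei of uninjured replicate 2 had 2695 CPM, and those of the fracture libraries had between 54.5 and 451.5. The unnamed cluster led by Tenm2, Ntng1 and Luzp2 had 705.5 and 1260 CPM before fracture.

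The share of nuclei with Dcn followed the same course at equal depth. After each nucleus was thinned to 500 UMIs, 35.7% (30 of 84, Clopper-Pearson 95% interval 25.6 to 46.9) and 46.8% (138 of 295, 41.0 to 52.7) of uninjured stromal nuclei held a Dcn UMI, and no stromal nucleus of these libraries was too shallow for this. At day 3 the shares were 4.39% (5 of 114, 1.44 to 9.94) and 13.1% (32 of 245, 9.11 to 17.9), on day 5 10.9% and on day 7 9.32%. Without thinning they were 59.5% and 80.0% before fracture, 25.4% and 62.0% at day 3, 46.6% on day 5 and 27.8% on day 7. Endothelial-like nuclei were taken as a measure of free RNA, and whether they express decorin themselves was not tested. They showed 2.83% and 7.36% before fracture, 2.5% and 4.69% at day 3, 1.26% on day 5 and 2.56% on day 7. The stromal interval overlapped the endothelial one of the same library in both day 3 libraries (endothelial 0.0633 to 13.2 and 0.977 to 13.1) and on day 7 (stromal 7.24 to 11.8, endothelial 0.312 to 8.96). By these intervals alone, these shares were not set apart from the endothelial ones at this depth, and no test was made. Immune-like nuclei gave another reference. Their share was 2.82% (1.82 to 4.17) in day 3 replicate 2 and 0.917% (0.0232 to 5.01) on day 7, both apart from the stromal share. In day 3 replicate 1 it was 0.662% (0.0168 to 3.63), which overlapped the stromal interval. The stromal and endothelial intervals lay apart on day 5 (9.02 to 13.0 against 0.261 to 3.64) and in both uninjured libraries. The CPM of the same nuclei lay apart in all 6 libraries, for example at 169.6 against 21.3 (2.58 to 77.0) in day 3 replicate 1. Median depth was 2400 UMIs in stromal and 1688.5 in endothelial-like nuclei of day 3 replicate 1, and in uninjured replicate 2 it was 2576 and 3488.

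**Figure D2:**
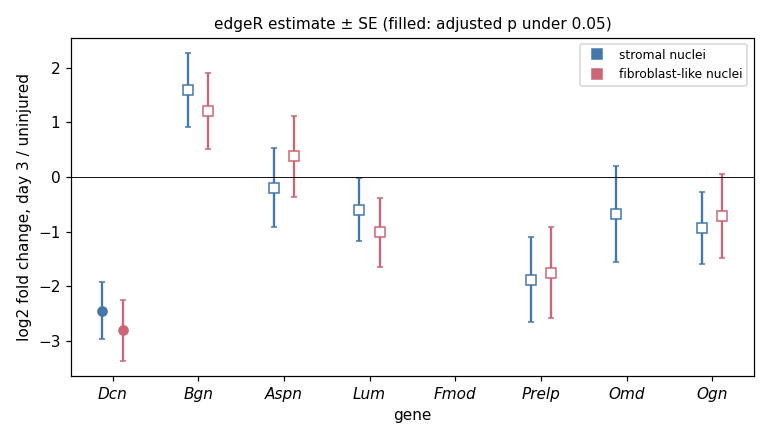
Estimated log2 fold change of day 3 over uninjured for each member tested (edgeR, bars ± SE), in stromal nuclei (blue) and fibroblast-like nuclei (red), with filled points for an adjusted p under 0.05. Only Dcn is filled, at -2.45 and -2.81, while Fmod was tested in neither set and Omd only in stromal nuclei.

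Biglycan, the closest relative of decorin, did not pass the test. Bgn was at 7.72 CPM (1 UMI) and 118 (150 UMIs) in uninjured stromal nuclei. It was at 106 and 394 in the day 3 libraries, 374 on day 5 and 71.6 on day 7. The day 3 replicates were thus below and above uninjured replicate 2, and the groups overlapped. The log2 fold change was 1.59 (SE 0.675, adjusted p = 0.202, edgeR), and no member was called higher, where 3.88% of all genes were. At an unadjusted p under 0.05, 1 member was higher (Bgn) and 2 were lower (Dcn and Prelp), and DESeq2 called Dcn alone. Bgn passed with no filter on low counts (1.65, adjusted p = 0.0023, edgeR) and without day 3 replicate 1 (2.13, adjusted p = 0.000336, edgeR), and its adjusted p over all alternatives ran from 0.000336 to 0.811 (DESeq2). On day 5 the unnamed cluster led by Pdzrn4, Fbn2 and Itgbl1 had 438 CPM (32 UMIs, 299 to 618). Among the named populations IIFC-like nuclei had 434, tendon-like 421, chondrocyte-like 351, fibroblast-like 348 and osteoblast-like 328. The intervals of neighbours in this order overlapped. On day 7 these 5 named populations had between 51.1 and 139 CPM.

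Ribosomal protein UMIs differed between the libraries. They made up 0.202% and 0.269% of stromal UMIs before fracture, 0.311% and 0.544% at day 3, 0.404% on day 5 and 0.176% on day 7, and Bgn was highest in the same 2 libraries (day 3 replicate 2 and day 5). The highest library of Lum was uninjured replicate 2 (137 CPM), with day 5 and day 3 replicate 2 next. The part of ribosomal UMIs in the results was not tested. With only nuclei under 0.5% ribosomal UMIs, Dcn fell by 2.35 (adjusted p = 0.0206, edgeR) and Bgn had a log2 fold change of 1.56 (adjusted p = 0.216, edgeR).

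Biglycan was not limited to stroma. In uninjured replicate 2 pericyte/SMC-like nuclei, the contractile cells of vessel walls, had 192 CPM (148 to 245), fibroblast-like nuclei 175, tendon-like 148 and endothelial-like nuclei 132 (112 to 154), again with overlapping neighbours. The endothelial-like nuclei held 37.5% of the Bgn UMIs of this library's clustered nuclei and all stromal nuclei 35.6%. By contrast 75.3% of the Dcn UMIs of the clustered nuclei were in stromal nuclei, which were 35.5% of the clustered nuclei. Endothelial Bgn was at 26.1 and 132 CPM before fracture, 32.0 and 111 at day 3, 129 on day 5 and 29.7 on day 7, with no gap between groups. Among endothelial-like nuclei, where 1.82% of 6825 genes were called higher and 2.04% lower (3.85% in all), neither member tested was called by edgeR (Dcn -0.70, adjusted p = 0.592, and Bgn -0.10, adjusted p = 0.97). No member was below an unadjusted p of 0.05 there, and DESeq2 called 0.

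Asporin, which competes with decorin for collagen, was at its highest stromal level on day 5 but did not pass the test at day 3. In stromal nuclei Aspn was at 46.3 (6 UMIs) and 373 CPM before fracture, 66.3 and 352 at day 3, 604 (583 to 625) on day 5 and 349.6 (321 to 381) on day 7. The replicates of a group differed from each other by more than the groups did, and the log2 fold change at day 3 was -0.20 (SE 0.721, adjusted p = 0.92, edgeR). Day 5 lay above every other library, with 1 library and so no test. On day 5 fibroblast-like nuclei had 857 CPM, tendon-like 849 and IIFC-like 772, and the intervals of neighbours in this order overlapped. Osteoblast-like nuclei had 666 CPM in uninjured replicate 2, the highest of that library, but 201 on day 5. Tendon-like nuclei of day 3 replicate 2 had 1309 CPM against 261 in uninjured replicate 2 and 163 in day 3 replicate 1. Cenpp, the overlapping gene, was also highest on day 5 in stromal nuclei.

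Mural cells had Aspn with little Dcn. In pericyte/SMC-like nuclei Aspn was at 212 and 329.6 CPM before fracture, 307 on day 5 and 108 on day 7, while Dcn was at 6.07, 39.0, 32.0 and 21.6 CPM in the same libraries. Those Dcn levels were no higher than in endothelial-like nuclei of the same libraries (38.0, 79.3, 33.8 and 44.5). Both mural clusters showed it, at 347 CPM of Aspn over all libraries in the Trpc6 and Rgs5 cluster and 323 in the Myh11 and Ryr2 cluster, against 45.0 and 18.1 of Dcn. Endothelial-like nuclei had only 2.38 and 5.01 CPM of Aspn before fracture. Cenpp in the pericyte/SMC-like nuclei was at 42.5 and 62.9 CPM before fracture, 445 on day 5 and 43.3 on day 7. The day 3 libraries held 4 and 9 such nuclei, under the 10 required, so no test was made for them. Bgn in pericyte/SMC-like nuclei was at 42.5 and 192 CPM before fracture, 247 on day 5 and 21.6 (1 UMI) on day 7, where its interval (0.548 to 121) overlapped that of Dcn.

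**Figure D3:**
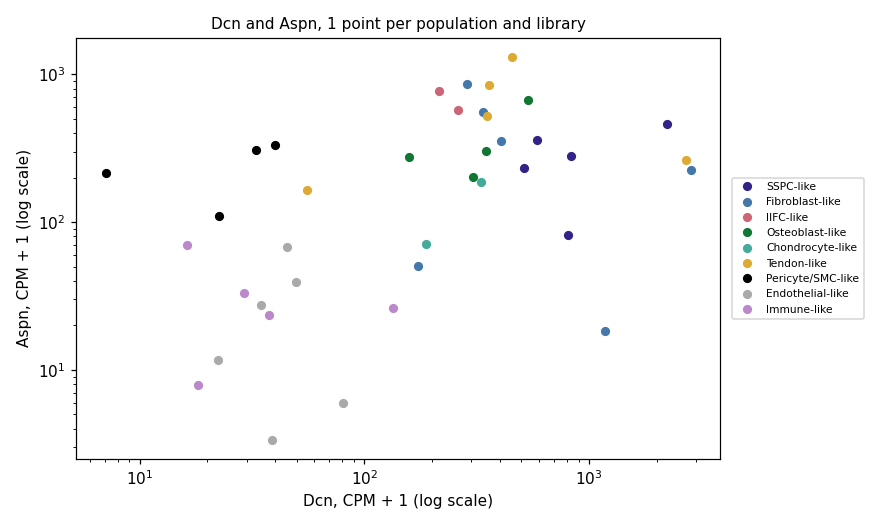
Dcn (horizontal) and Aspn (vertical) as CPM + 1 on log axes, with 1 point for each population and library of at least 20 nuclei. Pericyte/SMC-like points (black) lie at Dcn levels of 6.07 to 39.0 CPM with Aspn between 108 and 330, among Dcn levels that endothelial-like points also have.

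Lumican, which like fibromodulin binds type I collagen, did not pass the test. Lum was at 38.6 and 137 CPM in uninjured stromal nuclei, 26.5 and 104 at day 3, 130 on day 5 and 19.7 on day 7. The groups overlapped, and the log2 fold change at day 3 was -0.60 (adjusted p = 0.635, edgeR). On day 5 osteoblast-like (223 CPM, 187 to 264) and chondrocyte-like nuclei (175, 149 to 204) were highest, and their intervals overlapped. In uninjured replicate 2 the highest were fibroblast-like (179) and osteoblast-like nuclei (153).

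Fibromodulin was highest in tendon-like nuclei in uninjured replicate 2, day 3 replicate 2 and on day 5. That cluster was named by Thbs4 and Mkx without this gene, and uninjured replicate 1 held only 4 nuclei of it. On day 7 IIFC-like nuclei had more Fmod than tendon-like ones (30.7 CPM, 14 UMIs, against 9.28, 1 UMI), with overlapping intervals. In uninjured replicate 2 Fmod was at 483 CPM (98 UMIs, 392 to 588.5) in the 50 tendon-like nuclei, and the next population had 19.9 (4 UMIs, 5.43 to 51.0). Those 50 nuclei, 6.01% of the library's clustered nuclei, held 85.2% of the Fmod UMIs of all its clustered nuclei. In tendon-like nuclei it was at 36.3 (2 UMIs) and 137 at day 3, 147 on day 5 and 9.28 (1 UMI) on day 7, all below uninjured replicate 2. Stromal nuclei do not include the tendon-like ones. Their Fmod was at 0 (0 of 129589 UMIs, where 3 UMIs would be 23.1 CPM) and 3.95 CPM before fracture and at 2.65 and 12.5 at day 3. It was at 57.1 (50.8 to 63.9) on day 5 and 17.7 on day 7. On day 5 chondrocyte-like (85.9), osteoblast-like (82.1) and IIFC-like nuclei (55.5) all held it, and tendon-like nuclei, at 147 (117 to 181), lay above them beyond counting error.

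PRELP and osteomodulin gave few UMIs. Prelp was at 46.3 (6 UMIs) and 55.3 CPM in uninjured stromal nuclei. At day 3 it was at 0 (0 of 377287 UMIs, where 3 UMIs would be 7.95 CPM) and 23.3, then 12.9 on day 5 and 3.94 on day 7. Both uninjured libraries lay above the rest, yet the log2 fold change of -1.88 (SE 0.784, adjusted p = 0.197, edgeR) did not pass. It passed without day 3 replicate 2 (adjusted p = 0.00197, edgeR), where the lone day 3 library had no UMI and its spread was taken from the other group, and over all alternatives its adjusted p ran from 0.00197 to 0.526. In uninjured replicate 2 Prelp was at 148 CPM (99.7 to 211) in tendon-like nuclei and at 13.7 or less in tendon-like nuclei of day 3. In the same library it was at 66.0 CPM in adipocyte-like nuclei and at 107 (15 UMIs, 59.6 to 176) in the Mmrn1, Reln and Prox1 cluster of endothelial-like nuclei. The other endothelial clusters of that library had from 0 to 22.0 CPM, a contrast singled out after its values were seen. Omd, which marks osteoblasts, was at 7.72 (1 UMI) and 15.8 CPM in uninjured stromal nuclei, 0 and 13.7 at day 3, 4.74 on day 5 and 10.5 on day 7, with a log2 fold change of -0.68 (adjusted p = 0.741, edgeR).

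In uninjured replicate 2 Omd was at 179 CPM (36 UMIs, 126 to 248) in the unnamed cluster led by Tenm2, Ntng1 and Luzp2. The 36 nuclei of this cluster held 52.9% of the Omd UMIs of that library's clustered nuclei. Osteoblast-like nuclei came next at 59.0 (28.3 to 108.5) and tendon-like nuclei had 44.4. Uninjured replicate 1 had 3 Omd UMIs in the 32 nuclei of that cluster, 33.1 CPM. After fracture osteoblast-like nuclei had 111 CPM (17 UMIs) in day 3 replicate 2, 20.1 on day 5 and 13.1 (1 UMI) on day 7. Tendon-like nuclei had 38.0 CPM (22 UMIs) on day 5 and 27.8 (3 UMIs) on day 7, and chondrocyte-like nuclei had 21.2 (12 UMIs) on day 7, with intervals that overlapped those of osteoblast-like nuclei in the same libraries.

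Osteoglycin was spread over stroma and reached into nerve and mural cells. Ogn was at 38.6 (5 UMIs) and 145 CPM in uninjured stromal nuclei, 13.2 (5 UMIs) and 91.6 at day 3, 113 on day 5 and 121 on day 7. The groups overlapped, with a log2 fold change of -0.94 at day 3 (SE 0.656, adjusted p = 0.488, edgeR). Schwann-like nuclei, the glia of peripheral nerves, had 120 (5 UMIs) and 217 CPM (26 UMIs, 142 to 317) before fracture, where Aspn and Omd, the neighbours on chromosome 13, had 0 UMIs in both libraries. In uninjured replicate 2 the order of Ogn was Schwann-like, tendon-like (212), SSPC-like (170.1), the Tenm2 cluster (169) and fibroblast-like (137), with every neighbour's interval overlapping the next. Of the mural clusters in that library, the Myh11 and Ryr2 cluster had 146 CPM (36 UMIs, 103 to 203) and the Trpc6 and Rgs5 cluster had 0 UMIs. On day 5 the fibroblast-like nuclei had 182 CPM and IIFC-like 121.

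**Figure D4:**
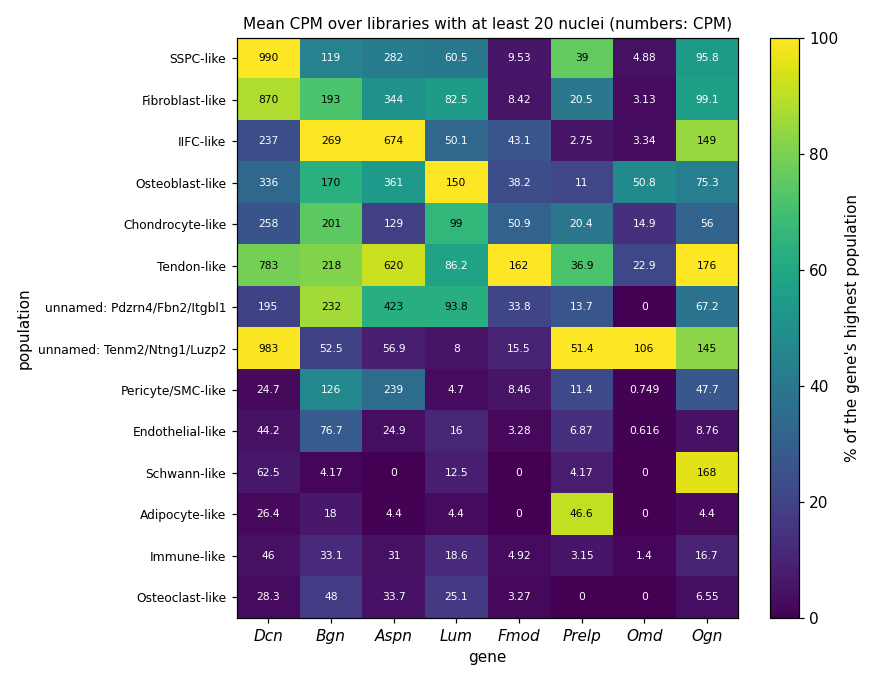
Mean CPM of each member (columns) in each population (rows) over the libraries with at least 20 nuclei of it, coloured as a percent of the gene's highest population. Columns are compared within a gene only, since genes differ in length and populations were averaged over different libraries, so near ranks are not an order: Dcn is 990 in SSPC-like and 870 in fibroblast-like nuclei, though fibroblast-like nuclei were higher in both uninjured libraries. Fmod is highest in tendon-like nuclei (162) and Omd in the Tenm2, Ntng1 and Luzp2 cluster (106).

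Relative to decorin, 5 members had higher ratios in every fracture library than in both uninjured ones, some of them by few UMIs. In stromal nuclei there were 0.00787 and 0.0505 Bgn UMIs per Dcn UMI before fracture, 0.625 and 0.859 at day 3, 1.33 on day 5 and 0.277 on day 7. All 4 fracture libraries lay above both uninjured ones. For Aspn the ratios were 0.0472 and 0.159, then 0.391 and 0.767, 2.14 and 1.35. For Ogn they were 0.0394 and 0.0619, then 0.0781 and 0.2, 0.402 and 0.468, and for Lum 0.0394 and 0.0585, then 0.156 and 0.226, 0.46 and 0.0763. For Fmod, with 0 and 5 UMIs before fracture, they were 0 and 0.00168, then 0.0156 and 0.0273, 0.203 and 0.0687. For these genes too no fracture library reached down to the uninjured ones. The gap was small for Ogn in day 3 replicate 1 (5 UMIs against 64 of Dcn) and for Lum on day 7 (30 against 393). Fmod had 1 UMI in day 3 replicate 1. No counting error was set on the ratios, so these small gaps are not shown to exceed it. The ratio of Prelp did not separate the groups, at 0.0472 and 0.0235 before fracture and between 0 and 0.0508 after it, and neither did that of Omd, at 0.00787 and 0.00673 and then between 0 and 0.0407. Because the ratios share the Dcn UMIs as their base, they move with the fall of Dcn itself, and they were not tested.

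**Figure D5:**
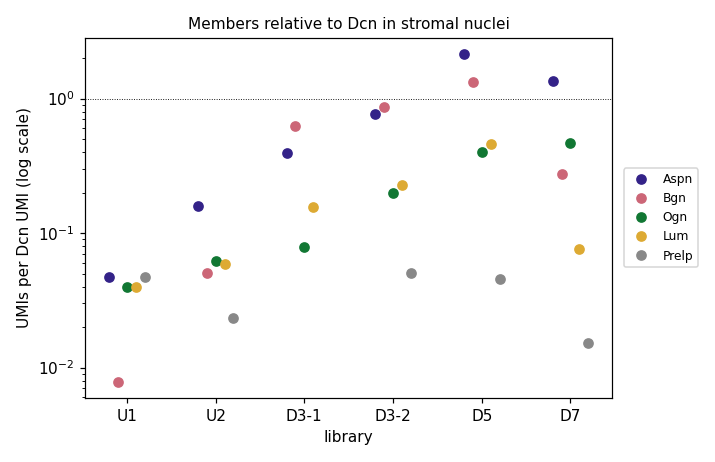
UMIs of Aspn, Bgn, Ogn, Lum and Prelp per Dcn UMI in stromal nuclei of each library, on a log axis. Fmod and Omd are not drawn, and neither is a ratio of 0. The dotted line is at a ratio of 1, and points are shifted sideways to keep them apart. Aspn (blue) and Bgn (red) pass the line on day 5, with 2.14 and 1.33, and lie at 0.159 and 0.0505 in uninjured replicate 2.

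Taken over all nuclei, no member passed the test at day 3. Dcn was at 238 and 1029 CPM before fracture and 87.7 and 159 at day 3, a log2 fold change of -2.38 (SE 0.66, adjusted p = 0.0794, edgeR over 12577 genes, of which 2.89% were called higher and 6.07% lower, 8.96% in all). At an unadjusted p under 0.05 there were 2 members lower (Dcn and Prelp) and 0 higher, and DESeq2 called 1, Dcn (adjusted p = 0.00179). Stromal nuclei were 18.4% and 35.5% of the nuclei before fracture and 33.1% and 20.1% at day 3, with no gap between groups, and in these sums fewer stromal nuclei and less Dcn RNA per nucleus cannot be told apart. In day 3 replicate 2 most member UMIs lay outside the nuclei that were kept: all barcodes held 6522 Dcn and 6361 Bgn UMIs, against 1093 and 1001 in the clustered nuclei. Over all deposited barcodes the Dcn change was -1.81 (adjusted p = 0.341, edgeR), and over all alternatives its adjusted p ran from 7.43e-08 to 0.341.

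Nuclei rarely held several members at this depth. After thinning, 41.7% and 62.4% of uninjured stromal nuclei, 7.89% and 43.3% at day 3, 48.0% on day 5 and 26.5% on day 7 held a UMI of any member. Shares with 2 or more members were 3.57% and 17.3%, 1.75% and 7.76%, 13.2% and 3.4%. On day 5 Bgn was found in 17.6% of stromal nuclei with a Dcn UMI and in 17.2% of those without, and Aspn in 17.6% and 20.2%. Lum was found in 12.0% and 6.45%, and Ogn in 7.41% and 3.39%, with 108 nuclei holding Dcn. These shares were not tested, since the nuclei come from 1 library.

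Across 49 sums of a population in a library, the gene most like Dcn among 10273 genes was Pdgfra, a receptor of mesenchymal cells, with a Pearson r of 0.889 on log2(CPM + 10). Pdgfra was itself a marker used for naming. Aspn was most like Sh3rf3 (0.889) and Dnm3os (0.873), a microRNA host transcript. Bgn was most like Sec22b (0.793), Aebp1 (0.772) and Sec24a (0.772), of which Sec22b and Sec24a act in transport from the endoplasmic reticulum. Lum was most like Timp1 (0.775), Serpinf1 and Serpinh1, the collagen chaperone, and Fmod was most like Fibin (0.775), the tendon factor Mkx (0.746) and Chad. For Prelp the list was Nr1d1 (0.762), Aldh1a1 and Gstt1, for Omd Lrp4 (0.777), Bmp3 and Fgfr2, and for Ogn Casc4 (0.771), Magi2 and Gm32618. Among the members themselves the highest r were those of Aspn with Bgn (0.679) and with Ogn (0.673), and Omd, which lies between Aspn and Ogn, had 0.294 and 0.477 with them. These sums share libraries, so the correlations are descriptions.

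Enzymes that build the chains of decorin and biglycan were among the genes that rose. Of 21 genes for chondroitin and dermatan sulfate synthesis, 15 were tested at day 3 in stromal nuclei, 4 were higher and 0 lower by edgeR (2 lower at an unadjusted p under 0.05, and DESeq2 called 3 in all), where 3.88% of all genes were higher. Their median log2 fold change was 0.40, against 0.10 over all genes and -0.68 over the 7 members tested. Csgalnact1, which starts chondroitin chains, was at 124 and 305 CPM before fracture and 2197 and 1807 at day 3 (log2 fold change 3.20, SE 0.495, adjusted p = 0.00483, edgeR). Chsy1, a chain polymerase, was at 0 and 45.0 CPM and then 241 and 252 (2.89, adjusted p = 0.0152, edgeR), and the sulfotransferase Chst11 was at 108 and 88.5 CPM and then 800.5 and 372 (2.70, adjusted p = 0.0109, edgeR). The day 3 libraries lay above both uninjured ones for all 3 genes.

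The other lists held few calls, where 3.88% of all genes tested were higher and 4.59% lower. For keratan sulfate synthesis and tyrosine sulfation, 1 of 6 tested genes was lower, St3gal1, a sialyltransferase, at 424 and 463 CPM and then 162 and 104 (log2 fold change -1.72, adjusted p = 0.0245, edgeR), and the list's median was 0.14. Among the proteases that cleave family members, 1 of 10 was higher, the aggrecanase Adamts4, with 0 and 1 UMIs in the uninjured libraries and 6 and 34 at day 3 (adjusted p = 0.0311, edgeR), with a median of -0.49 over the list. Of the receptors and growth factor partners, 1 of 13 was lower, Tlr4, an innate immune receptor that biglycan is known to bind, at 139 and 192 CPM and then 42.4 and 67.7 (-1.61, adjusted p = 0.0273, edgeR), while DESeq2 called 0 of that list and its median was -0.11. For fibrillar collagens and fibril partners, 2 of 15 were higher, the crosslinking enzyme Lox (1.98, adjusted p = 0.0186, edgeR) and Col11a1 (1.56, adjusted p = 0.0271, edgeR), and the list's median was 0.90. Of 10 further genes of the proteoglycan family, 5 were tested and 0 passed by edgeR or DESeq2, with 1 higher and 2 lower at an unadjusted p under 0.05. In fibroblast-like nuclei both of the 2 that were tested were called lower by edgeR, Podn (156 and 234 CPM, then 16.6 and 65.4, -2.19, adjusted p = 0.0248) and Ecm2 (86.5 and 110 CPM, then 6.64 and 27.8, -2.36, adjusted p = 0.0328). DESeq2 called neither, and these genes were singled out after their values were seen.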

How the data were processed

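Nuclei were isolated from pools of mice, sorted and sequenced with droplet libraries, 1 library per pool. The authors aligned reads to mm10 with intronic and exonic sequence included, using Cell Ranger 6.0.0 (uninjured replicate 1, day 5, day 7) or 7.1.0 (the other 3), and deposited raw UMI counts per gene and barcode, 55293921 in all over 13551 barcodes. The use of strand in counting is not given in the sources used here.

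Barcodes were kept as nuclei (8073) if they held 200 to 5000 genes and if mitochondrial UMIs were below 2% and ribosomal UMIs below 1.5%. Scrublet (scanpy 1.11.5) marked 50 as doublets (0.619%), which were kept and left out as an alternative. Myogenic nuclei were removed in 2 steps (1700 and 335). The remaining 6038 were integrated with Seurat 5.3.0 and clustered at a resolution of 1.3, without the 8 members and the 10 other family genes among the features. Clusters were named from marker genes, with a minimum mean log2 marker ratio of 2 that was chosen after the clusters were seen. Shares of nuclei were compared after thinning each nucleus to 500 UMIs.

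Counts were summed per library and tested with edgeR 4.0.16 (quasi-likelihood, TMM, filterByExpr), day 3 against uninjured, 2 libraries each, with Benjamini-Hochberg adjustment over all genes and a threshold of 0.05. DESeq2 1.42.0, RLE size factors, no filter on low counts, leaving out each library, and other cell filters and clusterings were alternatives. The edgeR step was also tested on simulated data. Days 5 and 7 had 1 library each and no test. Replicate numbers follow only the order of the samples and pair nothing, and p-values measure the spread between these pools.

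Genes named beside the members were at most the 3 with the largest change among those that passed in each of 6 lists, and the 3 most correlated with each member. These lists cover the other family genes, chondroitin and dermatan sulfate synthesis, keratan sulfate synthesis and tyrosine sulfation, proteases, receptors and growth factor partners, and fibrillar collagens. The members and lists were chosen with earlier results of these data known.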

Additional observations from a re-analysis of the deposited data

How the results depend on the processing

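Stromal Dcn kept its direction and its call under every alternative except leaving out uninjured replicate 2. The number of members called at day 3 was 1 in stromal nuclei, 2 with no filter on low counts (Dcn and Bgn) and 0 to 4 when 1 library was left out. It was 1 in fibroblast-like nuclei and 1 to 2 with 1 library left out, where without uninjured replicate 2 the call was Bgn and not Dcn, with 0 UMIs in the remaining uninjured library. Over all nuclei it was 0 by edgeR, 1 by DESeq2 (Dcn), 2 with no filter (Dcn and Prelp) and 0 to 1 with 1 library left out (Dcn, -3.04 without uninjured replicate 1, adjusted p = 0.0239, edgeR). Without day 3 replicate 2, stromal Aspn (-1.63), Ogn (-2.77) and Prelp were also called lower, a lone sample being assumed to vary like the other group.

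Signs turned for members that did not pass. With 1 library left out, the stromal change ran from -1.63 to 2.12 for Aspn, from -1.72 to 0.75 for Lum and from -2.77 to 0.46 for Ogn, the highest of each without uninjured replicate 2, and Aspn was also 0.44 without day 3 replicate 1 and 0.32 with tendon-like and unnamed clusters added. In fibroblast-like nuclei the ranges were -1.37 to 3.63 for Aspn (-0.27 without uninjured replicate 1), -2.23 to 0.99 for Lum and -2.25 to 7.99 for Ogn, whose highest is a fitted value against a library at 0 and no bound. Endothelial Bgn ran from -1.36 to 1.46 (0.20 without day 3 replicate 1). Over all nuclei Bgn ran from -0.050 to 1.76, Aspn from -1.27 to 0.88 (0.36 without day 3 replicate 1) and Lum from -0.74 to 1.64 (0.15 without day 3 replicate 1). Aspn and Lum were 0.30 and 0.31 over all deposited barcodes, an alternative chosen after seeing the data, like the limit of 0.5% ribosomal UMIs. The cause was not tested. Of all single-member values 214 kept direction and side of the threshold, 18 reversed, 11 came to pass and 2 no longer passed. By mean CPM over libraries the highest population was the same for 7 of 8 members in each of 4 alternatives: Ogn moved to Schwann-like nuclei without doublets, Dcn to the Tenm2 cluster under 1% mitochondrial UMIs, and Aspn to tendon-like nuclei at a resolution of 0.8 or with family genes kept. The population with the highest share of nuclei was the same for 4 of 8 members when nuclei were thinned to 1000 UMIs, which leaves shallower nuclei out.

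Pericyte/SMC-like nuclei could not be fitted for want of day 3 nuclei. No paired analysis was possible because the replicate numbers were given in sample order only. Depth limited Omd, Prelp, Fmod and Ogn, with 0 to 6 stromal UMIs in uninjured replicate 1 and day 3 replicate 1, and in uninjured replicate 1 also Bgn (1 UMI), Lum (5) and Aspn (6).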
